A study of Mus musculus with 6 samples.

Results

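Ranbp3l, Dcdc2a and Prex2 are 3 of the 31053 genes in the count files of this series. They were chosen from earlier results of these data as genes that were far higher in mesenchymal-like cells of the cortical surface than in those of the bone-associated tissue, and they had been grouped as restricted to the leptomeninges. Their values in that contrast, and their order over cell classes, are therefore given as a description with no test. All 3 were present in every library's gene list, under ENSMUSG00000048424 (Ranbp3l), ENSMUSG00000035910 (Dcdc2a) and ENSMUSG00000048960 (Prex2).

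The study isolated single cells from adult C57BL6 mice by 2 dissections. Cells were released from the outer surface of the dorsal cortex with its leptomeninges (cortical surface, 4 libraries), or from the connective tissue on the inside of the skull, including the dura (bone-associated, 2 libraries). Each library pooled several animals, so that the library is the replicate here and no value belongs to 1 mouse. The animals were wild type and were not perfused before isolation, and per the labels live cells were sorted as DRAQ5-positive and propidium iodide-negative and captured with a 3′ droplet kit. The labels' dissociation text describes the ventricular zone and papain, which differs from the dissections given in the study's methods.

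The leptomeninges, the pia and the arachnoid, are the thin inner membranes that cover the brain, and the dura is the outer membrane that lines the skull. All hold fibroblasts, which lay down matrix and, in the leptomeninges, also carry transporters and gap junction proteins. Ranbp3l encodes a Ran-binding protein that takes part in the nuclear export of the Smads that carry bone morphogenetic protein (BMP) signals. Dcdc2a encodes a doublecortin-domain protein that binds microtubules and is found at the primary cilium. Prex2 encodes a guanine nucleotide exchange factor that switches on the small GTPase Rac downstream of phosphoinositide 3-kinase and G protein βγ subunits.

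On the mm10 build (GRCm38), Ranbp3l spans chr15:8967949-9067335, Dcdc2a spans chr13:25056004-25210706 and Prex2 spans chr1:10993465-11303681, all protein-coding and on the plus strand, per the GENCODE annotation. No annotated gene overlapped Ranbp3l. The 1 gene that overlaps Dcdc2a and the 2 that overlap Prex2 lie on the opposite strand and have no row in the files. The 250 bases before the annotated start were in the RefSeq promoter table (GRCm38.p6) for Ranbp3l and Dcdc2a. They are shown because both genes shared their highest class while their upstream sequences differ in base composition. Capitals mark each CpG dinucleotide in chr15:8967699-8967948 (Ranbp3l) and chr13:25055754-25056003 (Dcdc2a), both read 5′ to 3′ on the plus strand.
Ranbp3l: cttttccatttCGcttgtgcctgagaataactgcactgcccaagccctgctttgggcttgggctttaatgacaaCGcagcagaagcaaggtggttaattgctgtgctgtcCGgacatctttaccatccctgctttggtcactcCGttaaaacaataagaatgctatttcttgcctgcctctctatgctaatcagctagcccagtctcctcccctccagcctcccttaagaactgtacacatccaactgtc
Dcdc2a: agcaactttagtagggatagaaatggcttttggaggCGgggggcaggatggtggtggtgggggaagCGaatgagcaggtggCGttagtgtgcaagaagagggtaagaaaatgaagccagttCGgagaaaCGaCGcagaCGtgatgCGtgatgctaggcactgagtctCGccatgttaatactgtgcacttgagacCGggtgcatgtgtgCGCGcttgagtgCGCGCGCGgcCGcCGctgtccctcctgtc

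The Ranbp3l sequence held 4 CpG dinucleotides and 48.8% G or C, against 18 and 57.2% for Dcdc2a. Over the 32851 promoters of the table, the median was 6 CpG dinucleotides and 52.4% G or C, and 37.8% of promoters had fewer CpG than Ranbp3l and 78.3% fewer than Dcdc2a. Neither sequence held, on either strand, a TATA box (TATAAA, in 12.4% of promoters), a CCAAT box (CCAAT, 33.8%), a GC box (GGGCGG, 32.7%), a forkhead word (TGTTTAC, 3.17%) or a Zic word (CAGCAGG, 8.44%). These letters are a description of the window and say nothing on which factors bind there.

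After filtering, 8680 cells remained, 5272 from the cortical surface and 3408 from the bone-associated tissue, with a median of 5468 to 9556 UMIs (unique molecular identifiers, 1 per captured RNA molecule) per cell in a library. In the deposited barcodes of cortical surface libraries 3 and 4, hemoglobin genes took 84.6% and 71.9% of UMIs, while in the other 4 libraries they took under 1%; most of those barcodes failed the filters, and the mesenchymal-like cells kept from libraries 3 and 4 held 9.71% and 0.311%. Libraries shared 10 cell barcodes in all over the 15 pairs. Cells were clustered without the 3 genes and named by markers. Over the 8 genes of a leptomeningeal list (among them Ptgds, Slc22a6, Gjb2 and Gjb6), the summed level in mesenchymal-like cells was 52394 to 102597 CPM (UMIs of a gene per 1000000 UMIs of the class) in the 4 cortical surface libraries and 171 and 626 CPM in the bone-associated libraries. Ptgds made up most of that sum, at 74716 CPM over the cortical surface libraries and 318 CPM over the bone-associated ones. Each other gene of the list was also higher on the cortical surface. A dural list of 8 genes (among them Matn4, H19 and Alpl) gave 40.1 to 268 CPM in the cortical surface libraries and 7308 and 6589 CPM in the bone-associated ones. By both lists the cortical surface mesenchymal-like cells (n = 282) carried a leptomeningeal pattern and the bone-associated ones (n = 288) a dural pattern. The study reported most genes of both lists from its own comparison of these same libraries. That the lists separate the preparations is therefore a description of the classes and no independent check of their identity. Each UMI is counted at an RNA's 3′ end, so that CPM values are not scaled by gene length.

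Most Ranbp3l molecules were in mesenchymal-like cells of the cortical surface, Dcdc2a was shared among several classes, and Prex2 was mainly an endothelial transcript in these data. Of 1372 Ranbp3l UMIs in kept cells, 94.4% were in cortical surface mesenchymal-like cells. The same cells held 61.2% of 662 Dcdc2a UMIs but 8.19% of 2845 Prex2 UMIs, while endothelial-like cells of both preparations held 58.5% of Prex2. By these shares, the label of a restriction to the leptomeninges described most Ranbp3l molecules and part of the Dcdc2a molecules, and it did not describe Prex2. In the cortical surface mesenchymal-like cells a pial list summed to 3865 CPM (6 of 6 genes detected). An arachnoid list summed to 142 CPM (5 of 7, Cdh1 and Rspo2 at 0). Pial and arachnoid cells were not told apart here, so the shares do not describe each of them. The shares also depend on how many cells of each class were kept. For example, 282 cells were cortical surface mesenchymal-like and 19 were astrocyte-like. What the 3 genes shared was the step between the 2 kinds of mesenchymal-like cell on which they had been chosen.

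**Figure D1:**
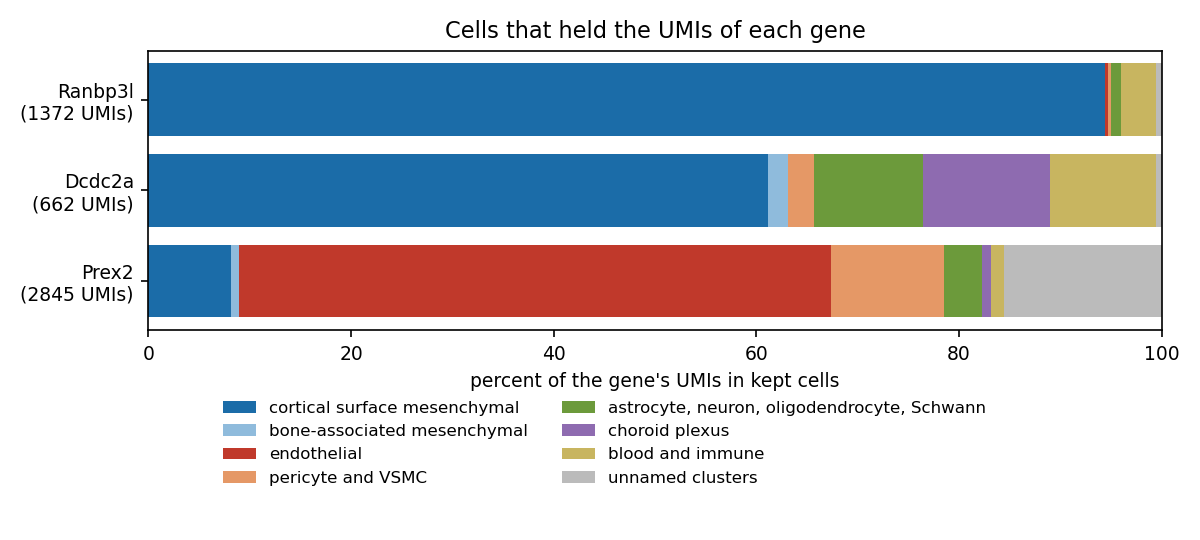
Percent of each gene's UMIs in kept cells (x axis) by the class of the cell, with the number of UMIs beside each gene. Cortical surface mesenchymal-like cells hold 94.4% of Ranbp3l, 61.2% of Dcdc2a and 8.19% of Prex2; endothelial-like cells hold 58.5% of Prex2.

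In cortical surface mesenchymal-like cells, Ranbp3l stood at 613, 457, 373 and 658 CPM in libraries 1 to 4, a mean of 525 ± 133 CPM (SD, n = 4). Neither bone-associated library held a Ranbp3l UMI in mesenchymal-like cells. With 0 UMIs in 288 cells of a median 15012.5 UMIs, the limit that 3 counts allow is 0.677 CPM and 1.04% of cells, so that the summed cortical level was at least 733-fold higher. That bound rests mainly on bone-associated library 2, without which 33 cells remain, the limit is 5.25 CPM and the level was at least 94.7-fold higher. Intervals and limits here cover counting error only. The share of cells with a UMI was 87.3%, 91.1%, 79.4% and 78.3% in cortical surface libraries 1 to 4, and 247 of all 282 cells (87.6%). When each cell was thinned to 1500 UMIs, which left out 12 of the 282 cells, the share was 49.3%.

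Dcdc2a in the same cells was at 221, 133, 134 and 144 CPM in libraries 1 to 4, with a mean of 158 ± 42.1 CPM (SD, n = 4). Library 1 stood above the other 3, which lay close together. In bone-associated mesenchymal-like cells, library 1 held no Dcdc2a UMI and library 2 held 13, all in 1 cell. The pooled ratio of 52.9 therefore rests on that cell in its denominator, and without library 2 the level was at least 29.6-fold higher on the cortical surface. A Dcdc2a UMI was seen in 53.9% of cortical surface mesenchymal-like cells (152 of 282), and in 16.7% after thinning.

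Prex2 in mesenchymal-like cells was at 102, 77.0, 109 and 153 CPM in cortical surface libraries 1 to 4, a mean of 110 ± 31.7 CPM (SD, n = 4). The bone-associated libraries had 10.5 and 3.63 CPM, from 6 and 14 UMIs, and all 4 cortical surface libraries lay above both. Summed over libraries, the ratio was 19.8, and 8.52 without bone-associated library 2. Prex2 was seen in 47.2% of the cortical surface cells (133 of 282) and 11.5% after thinning, against 5.56% (16 of 288) and 0.351% in the bone-associated cells. For scale, the fit across all genes of this contrast called 13.8% of 9647 genes tested, and since the 3 genes were selected on this contrast nothing is read from their place in it.

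Astrocyte markers were also higher in the cortical surface mesenchymal-like cells. Of 9 such markers, 8 had a UMI there (Agt was at 0), with a summed level of 851 to 1162 CPM per library, against 7 of 9 (Slc1a2 and Mlc1 at 0) and 168 and 288 CPM in the bone-associated cells. The endothelial list, with 7 of 8 markers detected (Tie1 at 0), was at 162 to 209 CPM in cortical surface libraries and, with 8 of 8, at 59.6 to 355 CPM in the bone-associated ones. No astrocyte-like class was named in the bone-associated libraries. Whether these marker UMIs came from other cells, and whether such RNA had a part in the levels of Prex2 and Ranbp3l, was not tested.

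**Figure D2:**
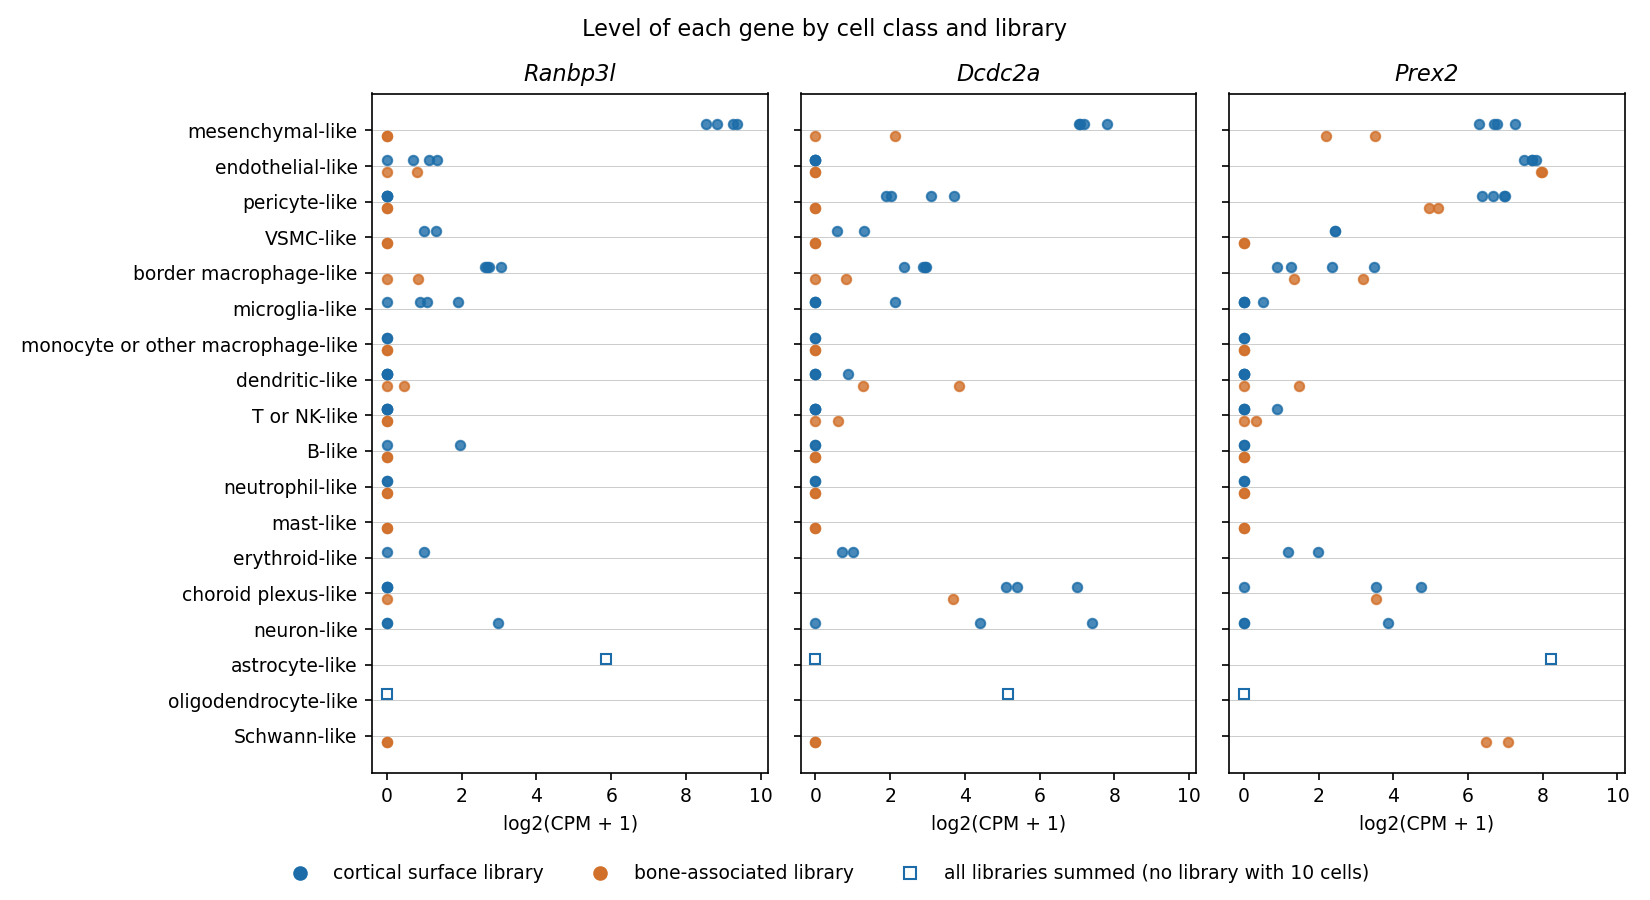
Level of each gene, as log2(CPM + 1), in every named class. Each dot is a library with at least 10 cells of the class (blue, cortical surface; orange, bone-associated), and squares give classes in which no library reached 10 cells. Ranbp3l is highest in cortical surface mesenchymal-like cells and is also seen in astrocyte-like cells (56.7 CPM, 19 cells). Dcdc2a is also seen in choroid plexus-like and neuron-like cells, and Prex2 in endothelial-, pericyte-, astrocyte- and Schwann-like cells.

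Cortical surface mesenchymal-like cells fell into a pair of clusters, and the 3 genes were detected in both. The larger (216 cells) was led by Slc6a13 and Slc22a6, which encode a GABA and an organic anion transporter, and by the prostaglandin D synthase Ptgds. The smaller (66 cells) was led by the insulin-like growth factor binding proteins Igfbp6 and Igfbp5 and by Mfap5. Summed over libraries, the larger against the smaller cluster had 592 against 249 CPM of Ranbp3l, 175 against 105 CPM of Dcdc2a and 109 against 38.7 CPM of Prex2.

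Other lists moved with this step. The leptomeningeal list summed to 96974 CPM in the larger and 32364 CPM in the smaller cluster, with 8 of 8 genes detected in both. Ptgds made up most of these sums, at 91803 and 30203 CPM. Each other gene of the list was also lower in the smaller cluster, among them Gjb6 (1428 against 506 CPM) and Lama1 (142 against 117 CPM). The dural list was at 54.1 CPM (4 of 8 genes; H19, Shisa3, Alpl and Ostn at 0) against 549 CPM (7 of 8; Matn4 at 0), with Alpl at 164 CPM in the smaller cluster. The pial list was at 4511 CPM against 2182 CPM (6 of 6 in both). Of its genes Igfbp4 went the other way (294 against 600 CPM). The arachnoid list was at 126 CPM (4 of 7) against 182 CPM (5 of 7). Of its genes Slc47a1 (0 against 116 CPM), Bnc2 and Dpp4 were higher in the smaller cluster. Ppp1r1a (108 against 33.2 CPM) and Trpm3 were higher in the larger. Microglia markers were at 269 CPM against 782 CPM (8 of 8 in both), and astrocyte markers at 1078 CPM (6 of 9) against 339 CPM (7 of 9). Their part in the differences of the 3 genes was not tested.

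By library, Ranbp3l was at 605, 568, 553 and 907 CPM in the larger cluster and 694, 235, 95.8 and 183 CPM in the smaller, in libraries 1 to 4. Dcdc2a was at 209, 151, 194 and 206 CPM against 347, 96.9, 42.6 and 26.2 CPM. For both genes the smaller cluster was lower in libraries 2, 3 and 4 and higher in library 1, where its cells had a median of 1945.5 UMIs against 8198. Prex2 was at 105, 98.7, 166 and 179 CPM in the larger cluster and 73.1, 33.5, 21.3 and 105 CPM in the smaller, lower in all 4 libraries. These are descriptions, since the clusters were drawn from the same cells, and the smaller cluster held 9 cells in each of libraries 3 and 4 and, for Prex2, 4, 18, 2 and 4 UMIs in libraries 1 to 4.

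**Figure D3:**
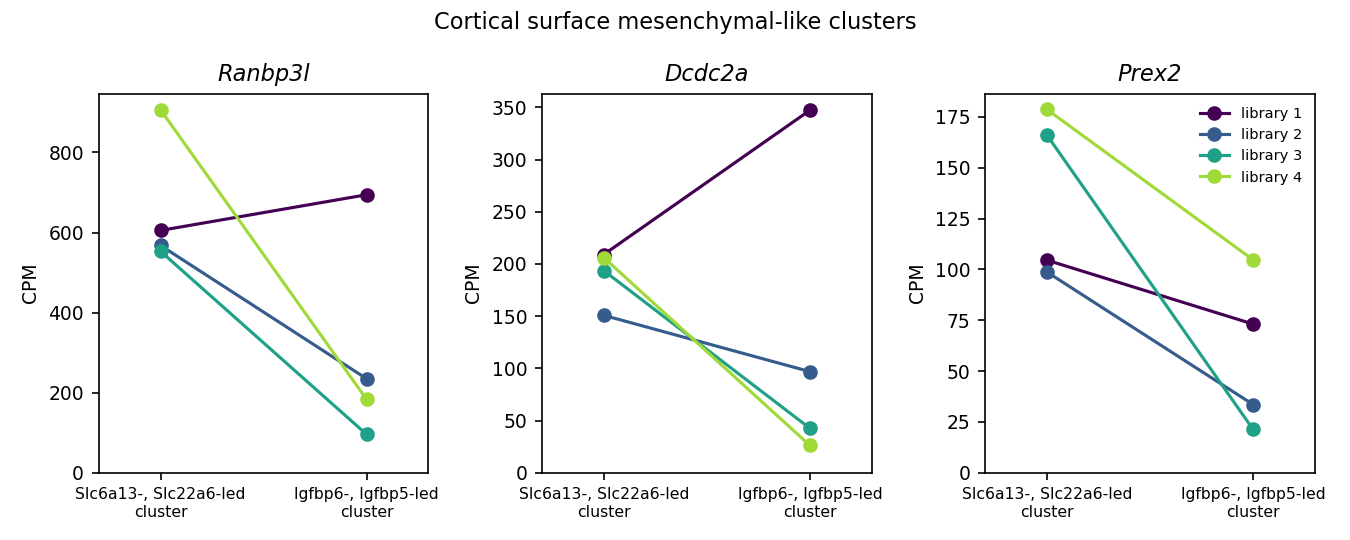
Level in CPM of Ranbp3l, Dcdc2a and Prex2 in the 2 clusters of cortical surface mesenchymal-like cells, with 1 line per library. Lines fall from the Slc6a13-led to the Igfbp6-led cluster for all 3 genes in libraries 2, 3 and 4; in library 1 they rise for Ranbp3l and Dcdc2a.

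Single cells often held more than 1 of the 3 transcripts. Of the 282 cells, 86 (30.5%) held a UMI of all 3, 102 held 2 of them, 70 held 1 and 24 held none. Dcdc2a was seen in 57.9% of cells with Ranbp3l and 25.7% of those without it. At 1500 UMIs per cell these shares were 15.8% (21 of 133; exact 95% interval 10.0% to 23.1%) and 17.5% (24 of 137; 11.6% to 24.9%), so the difference was not seen at equal depth. For Prex2 they were 51.8% and 14.3% at the cells' own depth, and 15.8% and 7.30% (10 of 137) after thinning.

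Outside mesenchymal-like cells, the highest Ranbp3l level was in astrocyte-like cells, with 13 UMIs in 8 of 19 cells (42.1%, exact 95% interval 20.3% to 66.5%) and 56.7 CPM. After thinning, which left out 3 of the 19 cells, 1 of 16 had a UMI (6.25%). No library had 10 astrocyte-like cells, so no spread can be given. Next were the border macrophage-like cells of the cortical surface (Mrc1, Pf4, F13a1 and Cbr2 are among their markers), with 7.21, 5.35, 5.10 and 5.62 CPM in libraries 1 to 4. In T- or NK-like cells of the cortical surface, 0 of 600 cells held a UMI. This allows a share of up to 0.5% and a level of up to 0.758 CPM. Libraries 3 and 4 gave 180 and 340 of those cells, and libraries 1 and 2 gave 41 and 39. The limit thus rests mainly on libraries 3 and 4, and for libraries 1 and 2 alone it is higher. Other cortical surface classes held a few, with 1.27 CPM in microglia-like cells (6 of 734 cells, 0.817%), 1.18 CPM in VSMC-like cells (4 of 259, 1.54%) and 0.862 CPM in endothelial-like cells (3 of 541, 0.555%). A B-like cell held 1 further UMI, in 147 such cells. The macrophage-like share was 4.56%. The median depth was 7971 UMIs in the macrophage-like and 6063 in the T- or NK-like cells. No UMI of Ranbp3l was found in cortical surface pericyte-like cells (limit 1.16 CPM) or choroid plexus-like cells (limit 1.83 CPM), and all bone-associated cells together held 3.

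The macrophage-like cells of the cortical surface also held other leptomeningeal transcripts. Summed over libraries, Ptgds was at 1139 CPM there and at 74716 CPM in the mesenchymal-like cells. It was at 30.6 CPM in T- or NK-like cells and 54.1 CPM in microglia-like cells. Slc22a6 and Gjb6 were at 6.73 and 12.5 CPM in macrophage-like cells and at 0.505 and 0.758 CPM in T- or NK-like cells. Slc6a13 went the other way, at 7.72 CPM in macrophage-like cells and 9.85 CPM in T- or NK-like cells. By library, 1 to 4, the macrophage-like cells had 1204, 1192, 972 and 881 CPM of Ptgds. T- or NK-like cells had 104, 99.1, 20.4 and 12.5 CPM, and microglia-like cells had 161, 160, 3.29 and 11.2 CPM. Dcdc2a was at 6.37, 6.58, 6.80 and 4.22 CPM in libraries 1 to 4, close to the level of Ranbp3l. In mesenchymal-like cells there were 31.3 Dcdc2a UMIs per 100 of Ranbp3l, and in the macrophage-like cells 103 per 100, from 38 and 37 UMIs. After thinning, which left out 76 of 701 cells, both genes were seen in 0.8% of macrophage-like cells, against 4.56% (Ranbp3l) and 3.99% (Dcdc2a) at the cells' own depth. The origin of these molecules was not tested.

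Dcdc2a had other sites. In choroid plexus-like cells of the cortical surface, the epithelium that secretes cerebrospinal fluid and bears cilia, 38 of 148 cells (25.7%; exact 95% interval 18.9% to 33.5%) held a UMI. The level there was 128, 41.1 and 33.5 CPM in libraries 2 to 4, from 25, 12 and 35 UMIs, with a mean of 67.5 ± 52.4 CPM (SD, n = 3). All 3 lay below the lowest mesenchymal-like library, library 2 by little, and library 2 rests on 12 cells. After thinning, 7.75% of the cells had a UMI, while no T- or NK-like cell of the cortical surface held one at any depth. In the 14 choroid plexus-like cells of the bone-associated libraries, Dcdc2a was at 11.8 CPM, from 10 UMIs in 5 cells. Those 14 cells had a median of 67678 UMIs, against 9234 in the class on the cortical surface, and only 1 library held 10 of them. The study listed choroid plexus cells for its cortical surface analysis, among cell types specific to 1 isolation. The identity of the 14 cells was not tested.

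In neuron-like cells (72 cells, led by Meis2, Sox11 and Tubb3), Dcdc2a was at 65.8 CPM, but 30 of 63 UMIs were in 1 cell and 8 cells held them all. Library 2 had 168 CPM, library 3 had 20.3 CPM and library 4 had none in 23 cells, and without the 1 cell the summed level was 35.2 CPM. Oligodendrocyte-like cells had 8 UMIs in 4 of 17 cells. Bone-associated dendritic-like cells had 24 UMIs, of which 20 were in 1 cell. Among cortical surface pericyte-like cells the 14 UMIs of Dcdc2a were all in the cluster led by Atp13a5 and Abcc9, in 10 of 263 cells. Endothelial-like cells held none in either preparation, with limits of 0.862 CPM on the cortical surface and 0.764 CPM in the bone-associated tissue.

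Prex2 was highest in endothelial-like and astrocyte-like cells. Cortical surface endothelial-like cells had 224, 179, 208 and 208 CPM in libraries 1 to 4, with a mean of 205 ± 18.5 CPM (SD, n = 4), which is 1.86 times the mean of the mesenchymal-like cells of the same libraries. All 4 lay above the highest mesenchymal-like library. A UMI was seen in 59.0% of these cells (25.4% after thinning), at a median of 5161 UMIs. Astrocyte-like cells held 68 UMIs in 17 of 19 cells, or 296 CPM. Pericyte-like cells of the cortical surface, at 101, 81.6, 125 and 124 CPM (mean 108 ± 20.8 CPM, SD, n = 4), and mesenchymal-like cells differed by less than their spread. Schwann-like cells, the glia of peripheral nerves, had 133 and 89.1 CPM in the bone-associated libraries. By contrast, 1 of 600 cortical surface T- or NK-like cells held a UMI (0.253 CPM), and microglia-like cells had 0.212 CPM.

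Within the endothelial-like cells of the cortical surface, the cluster led by the arterial genes Cytl1 and Gkn3 had 358 CPM of Prex2 (82 cells). The cluster led by Car5a and Mfsd2a, a lipid transporter of the blood-brain barrier, had 183 CPM (218 cells), and that led by the amino acid transporter Slc38a5 and by Vwf had 147 CPM (229 cells). The 3 bone-associated endothelial-like clusters had 200.5, 271 and 269 CPM. A further bone-associated cluster of 150 cells, led by Gkn3, Cytl1 and Sema3g, was left unnamed by the marker rule and had 352 CPM, with a UMI in 82.0% of cells. Among all clusters, named or not, these were the highest Prex2 levels of each preparation.

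The comparison of vessel cells between the preparations was not used to choose the genes, and Prex2 can be tested there. Endothelial-like Prex2 was 246 and 250 CPM in the bone-associated libraries, above all 4 cortical surface libraries (179 to 224 CPM). Its log2 fold change, cortical surface over bone-associated, was -0.28 ± 0.19 (SE), which did not pass the test (edgeR quasi-likelihood test, adjusted p = 0.407), and the 95% interval of the fold was 0.627 to 1.08. The fit called 6.49% of 7717 genes, 2.03% as higher on the cortical surface and 4.46% as higher in the bone-associated tissue. When the unnamed cluster led by Gkn3 and Cytl1 was added, the log2 fold change was -0.41 (edgeR adjusted p = 0.168). Ranbp3l and Dcdc2a did not pass the filter on low values in endothelial-, pericyte- or VSMC-like (vascular smooth muscle) cells.

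In cells of the pericyte-like class, Prex2 was at 29.9 and 35.4 CPM in the bone-associated libraries, and the 4 cortical surface libraries (81.6 to 125 CPM) lay above both. The fold was 2.73 (95% interval 1.73 to 4.32), a log2 fold change of 1.45 ± 0.31 (SE), with an adjusted p of 0.00524 (edgeR quasi-likelihood test). The fit called 6.47% of 7352 genes (adjusted p below 0.05 with a log2 fold change of 1.3 or more in size), and 1.43% as higher on the cortical surface. The class was not made up alike. The cortical surface held 263 cells led by Atp13a5 and Abcc9 (114 CPM) and 235 led by Colec11 and Ccl19 (94.9 CPM), whereas the bone-associated tissue held 81 cells led by Pla1a and Higd1b (59.8 CPM) and 34 and 21 cells of a pair of other clusters (3.29 and 14.8 CPM). With the clusters led by Ccl19, Ccl11 or Colec11 left out, the log2 fold change was 0.89 ± 0.35 (SE) and the call was lost (edgeR adjusted p = 0.142). With the library number as a block in the fit, the log2 fold change was 1.18 (edgeR adjusted p = 0.0110). This was under the fold limit, so that the call was lost there too. It was also lost without bone-associated library 2 (log2 fold change 1.70, edgeR adjusted p = 0.0694), and without cortical surface libraries 3 and 4 (1.23, edgeR adjusted p = 0.0437), where it fell under the fold limit.

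Mesenchymal markers were higher in the bone-associated pericyte-like cells, with 8 of 8 detected in both and a summed level of 2468 and 3080 CPM against 1085 to 1566 CPM on the cortical surface. Endothelial markers went the other way, at 368 to 511 CPM (7 of 8, Cdh5 at 0) against 501 to 792 CPM (8 of 8). Their part in the Prex2 difference was not tested. The preparation effects on Prex2 in the pericyte-like and the endothelial-like cells differed, by a log2 difference of 1.76 ± 0.28 (SE; edgeR interaction with library as a term, adjusted p = 0.000438). The test was repeated with the unnamed cluster led by Gkn3 and Cytl1 added and the clusters led by Ccl19, Ccl11 or Colec11 left out. The log2 difference was then 1.35 ± 0.33 (SE; edgeR adjusted p = 0.0104). Both forms of the test were chosen after the values were seen.

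VSMC-like cells had little Prex2. The 2 cortical surface libraries with such cells had 4.41 and 4.46 CPM, from 6 and 9 UMIs, and the bone-associated libraries had none in 267 cells (limit 0.914 CPM), so that the summed level was at least 4.86-fold higher on the cortical surface. With bone-associated library 1 or 2 left out, the bounds were 2.45-fold and 2.41-fold. Prex2 did not pass the filter of 10% of cells there.

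**Figure D4:**
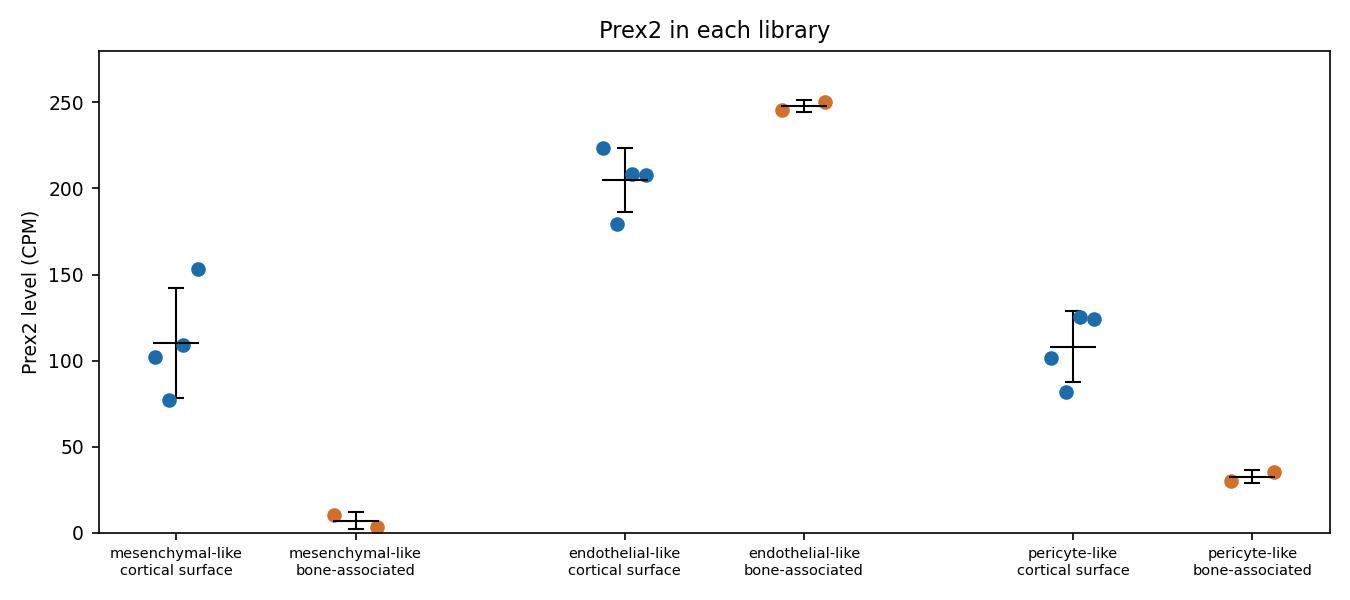
Prex2 level in CPM for each library with at least 10 cells, in mesenchymal-, endothelial- and pericyte-like cells (blue, cortical surface, n = 4; orange, bone-associated, n = 2), with mean and SD. Bone-associated libraries are below all cortical surface libraries in mesenchymal-like and pericyte-like cells and above them in endothelial-like cells. The endothelial-like difference did not pass the test (edgeR adjusted p = 0.407), and Prex2 had been chosen on the mesenchymal-like difference.

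Of the named relatives Ranbp3, Dcdc2b, Dcdc2c, Dcx and Prex1, Ranbp3 alone passed the filter on low values in mesenchymal-like cells and was tested there. Ranbp3, the broadly expressed relative of Ranbp3l, was at 20.1, 26.1, 0 and 9.01 CPM in cortical surface mesenchymal-like cells and 26.2 and 23.3 CPM in the bone-associated ones, with a log2 fold change of -0.30 ± 0.45 (SE) that did not pass the test (edgeR adjusted p = 0.766). Dcdc2b was at 4.22 and 1.13 CPM in the cells of each preparation. Dcdc2c and Dcx, the neuronal founder of the doublecortin family, had no UMI in either. Prex1 was at 4.98 and 3.16 CPM in mesenchymal-like cells and at 23.0 and 40.5 CPM in endothelial-like cells, where its adjusted p was 0.0447 (edgeR) but its log2 fold change of -0.85 was under the limit of 1.3.

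Genes of the same pathways were examined in the mesenchymal-like cells, for which 5.73% of tested genes were called higher on the cortical surface and 8.06% higher in bone-associated cells. Of 17 genes of Ran and Smad transport and BMP response, 16 were tested, none was called higher on the cortical surface and 4 were called higher in bone-associated cells; their median log2 fold change was -0.44, against 0.0047 over all genes tested. The 4 were the BMP response genes Id1, Id2 and Id4 and the inhibitory Smad Smad7. Id3, of the same family, was not called (log2 fold change -0.59, edgeR adjusted p = 0.258). It was at 1528, 1537, 759 and 865 CPM in the cortical surface libraries and 1594 and 2099 CPM in the bone-associated ones. Id2 was at 103, 137, 71.3 and 126 CPM in the cortical surface libraries and 944 and 1180 CPM in the bone-associated ones, with no overlap (log2 fold change -3.20 ± 0.27, SE; edgeR adjusted p = 6.53e-08). Id4 was at 0, 3.72, 0 and 27.03 CPM against 50.7 and 48.5 CPM. It passed the filter only through the bone-associated cells (22.6% against 2.13% of cells). Smad1, Smad5 and Smad4, which carry the signal, had log2 fold changes of -0.05, -0.15 and 0.06 and did not pass the test. Smad9, which also carries it, was low, at 4.63, 4.97, 8.38 and 9.01 CPM against 14.0 and 12.7 CPM. Its log2 fold change was -1.20 ± 0.50 (SE) and did not pass either (edgeR adjusted p = 0.120). Smad7 was at 40.1, 44.1, 41.9 and 45.05 CPM against 140 and 113 CPM. Id1, with a log2 fold change of -1.84, was at 37.0, 60.8, 25.2 and 243 CPM against 224 and 291 CPM, so that cortical surface library 4 overlapped the bone-associated libraries.

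In pericyte-like cells 5 of 15 tested genes of that list were called higher in the bone-associated tissue (Id1, Id2, Id4, Smad6 and Smad7), where 5.05% of all genes were. Smad7 and Id4 were also called in that direction in VSMC-like cells (2 of 15 tested, against 4.03% of 8379 genes, with 2.14% called higher on the cortical surface and 6.17% in all). None of 15 was called in endothelial-like cells, where 6.49% of all genes were. Id1 was higher on the cortical surface there (log2 fold change 0.96, edgeR adjusted p = 0.00825), under the fold limit. Id2 was higher in the bone-associated tissue (-0.63, edgeR adjusted p = 0.0393), also under that limit. Id3 was not called in pericyte-like or endothelial-like cells (edgeR adjusted p = 0.468 and 0.436). The pericyte-like class was not made up alike in the preparations, as given above. Its 5 called genes of the list were not examined with clusters left out.

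Of 18 genes of the doublecortin family and primary cilium, 12 were tested in mesenchymal-like cells. Of these, 1 was called, higher in bone-associated cells, as were 8.06% of all genes tested. The called gene was Dclk1, a doublecortin-like kinase. It was at 3.09, 13.04, 0 and 18.0 CPM on the cortical surface and 87.4 and 96.7 CPM in bone-associated cells (log2 fold change -3.31 ± 0.44, SE, edgeR adjusted p = 1.38e-05). Dclk1 passed the filter only through the bone-associated cells (44.8% against 3.90% of cells). The list's median was -0.45. Intraflagellar transport gene Ift88 and the hedgehog genes Ptch1, Gli1, Gli2 and Gli3 did not pass the test.

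The list of Rac exchange factors and phosphoinositide 3-kinase signalling had 15 of 18 genes tested in mesenchymal-like cells, with a median of -0.21. Of these, 1 was called higher on the cortical surface and 2 higher in bone-associated cells, against 5.73% and 8.06% of all genes tested. Gng2, a G protein γ subunit, was at 50.9, 39.7, 29.3 and 18.0 CPM on the cortical surface and 8.74 and 6.22 CPM in the bone-associated cells, with no overlap (log2 fold change 2.55 ± 0.41, SE; edgeR adjusted p = 0.000131). The Rac exchange factors Tiam1 and Tiam2 were higher in bone-associated cells, Tiam1 at 29.7 and 14.3 CPM against at most 1.24 CPM in each cortical surface library. Rac1 had a log2 fold change of -0.33 and did not pass the test. Gng2 was also called higher on the cortical surface in pericyte-like cells (log2 fold change 1.54). It was 1 of 10 genes of the list tested there, where 1.43% of all genes were called in that direction. In endothelial-like cells Gng2 (-2.06) and the exchange factor Vav3 (-2.42) were called higher in the bone-associated tissue. They were 2 of 13 genes of the list tested there, against 4.46% of all genes. In endothelial-like cells Gng2 (16.6% against 2.96% of cells) and Vav3 (11.1% against 1.85%) passed the filter only through the bone-associated tissue.

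Over the sums of the 29 named class-by-preparation groups with at least 10 cells, and among 14949 other genes, the 3 genes were not each other's nearest match. Pearson's r of log2(CPM + 1) was 0.39 between Ranbp3l and Dcdc2a, 0.43 between Ranbp3l and Prex2 and 0.15 between Dcdc2a and Prex2. The groups share libraries and differ in depth, so these values are a description. The 5 genes most like Ranbp3l were Asgr1 (r = 0.90), Gjb6 (0.86), Fzd10 (0.81), Epha8 (0.79) and Necab1 (0.77). For Dcdc2a they were 3632451O06Rik (0.84), Ccdc159 (0.80), Wdr27 (0.80), Slc5a5 (0.80) and Pnmal2 (0.77), and for Prex2 they were Nhsl1 (0.90), Samd5 (0.89), Lpar4 (0.87), A930004D18Rik (0.87) and Gm29107 (0.87). Gjb6, connexin 30, was at 1172 CPM in cortical surface mesenchymal-like cells, where Asgr1 was at 138 CPM.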

How the data were processed

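The deposited matrices hold raw UMI counts per gene and barcode, which the authors made with Cell Ranger on mm10 (version 3 per the processing notes, 6.1.2 per the file headers). Barcodes were kept from 500 genes upward and up to 10% mitochondrial UMIs. Each was scored by its likeness to simulated doublets, and those of highest score were removed as predicted doublets (0.8% per 1000 barcodes). Cells were clustered per preparation (scanpy 1.11.5, leidenalg 0.10.2, 2000 variable genes, 30 components, resolution 1.5) with the 3 genes left out. Clusters were named from fixed markers; exemptions for markers shared within a lineage, the rule for ties and the splitting of mixed clusters of at least 20 cells were set after the clusters were seen. The 3 genes and all lists were chosen with earlier results of these data known. Levels are UMIs per 1000000 summed over the cells of a class in a library with at least 10 such cells. Counts summed per library were tested with edgeR 4.0.16 (quasi-likelihood, TMM, genes in over 10% of cells of either group, Benjamini-Hochberg adjustment over all genes tested, adjusted p below 0.05 with a log2 fold change of 1.3 or more in size), with DESeq2 1.42.0, other filters, left-out libraries and a replicate block as alternatives; the changed clusters and the pair of left-out libraries were chosen after seeing the data. The fit was tested on simulated counts. Nothing in the labels says that libraries of a group came from separate days, so p-values measure only the spread between libraries. Shares have exact binomial 95% intervals, and limits at 0 use 3 counts. Named genes were the 3 genes, their paralogs, called genes of the lists (at most 4 per direction) and the 5 genes most like each; other genes named with values were chosen after their values were seen. Items withheld from this text are not reported here.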

Additional observations from a re-analysis of the deposited data

Results flagged for a closer look

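Among the 11 groups of 4 cortical surface libraries examined, a single library far from the other 3 was seen for Dcdc2a in mesenchymal-like cells, where library 1 had 221 CPM, and for Dcdc2a in border macrophage-like cells, where library 4 had 4.22 CPM, from 3 UMIs. Chance alone marks about 1 in 20 such groups. The effect of the preparation on Prex2 differed between pericyte-like and endothelial-like cells, by 1.76 on the log2 scale in a test chosen after the values were seen. With the clusters of both classes changed as described above, the difference was 1.35.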

How the results depend on the processing

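Of 165 alternative values over 17 results, 146 were the same as the main value by the rule for their kind. For fold changes this meant the same direction and side of the threshold, and for counts of genes within 1.5 times. Levels had to lie within the SD of the main mean, and shares inside the exact interval of the main share. No fold change reversed. With the filter at 25% of cells, the genes called were 826 (mesenchymal-like), 258 (endothelial-like), 259 (pericyte-like) and 290 (VSMC-like), and with no filter 912 (endothelial-like) and 741 (pericyte-like), since other numbers of genes were tested. Cells thinned to 1500 UMIs gave 562 genes in mesenchymal-like cells and shares of 49.3% (Ranbp3l), 16.7% (Dcdc2a) and 11.5% (Prex2). A class made by counting markers, which held 451 cells, gave Ranbp3l 283 CPM and 55.7% of cells, and Dcdc2a 90.3 CPM and 34.8%. Without 1 library at a time, calls ranged from 955 to 1321 (mesenchymal-like), 381 to 542 (endothelial-like), 314 to 536 (pericyte-like, lowest without bone-associated library 2) and 462 to 563 (VSMC-like). In the same refits the Prex2 log2 fold change in pericyte-like cells ranged from 1.35 to 1.70, and the call was lost without bone-associated library 2. A lone remaining library is assumed to vary like the others. The Prex2 call in pericyte-like cells was also lost with the clusters led by Ccl19, Ccl11 or Colec11 left out (0.89) and without the hemoglobin-rich libraries (1.23). The cause was not tested.

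The sources used here do not say whether same-numbered libraries of the 2 preparations came from the same animals. Same-numbered libraries correlated in their deviations at 0.07 and 0.19 (mesenchymal-like), 0.21 and 0.12 (endothelial-like), 0.15 and 0.23 (pericyte-like) and 0.36 (VSMC-like). With the replicate block, calls were 1386, 483, 477 and 576 in those classes, and Prex2 in pericyte-like cells had a log2 fold change of 1.18 (edgeR adjusted p = 0.0110), under the fold limit, so that its call was lost.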
